A study of Mus musculus with 10 samples.

Results

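Complex I of the respiratory chain was followed through its nuclear genes, taken as every symbol in the deposited counts that begins with Nduf. This rule found 45 of the 32531 symbols. They were 38 subunit symbols and, kept as a subgroup apart, the 7 assembly factors Ndufaf1 to Ndufaf7. The study measured whole-striatum RNA of adult Drd2-TRAP mice (line CP101), which carry EGFP fused to ribosomal protein L10a under the control of the dopamine D2 receptor gene. In translating ribosome affinity purification (TRAP), polysomes that carry the fusion are pulled down with antibodies to EGFP, so that the immunopurified (IP) RNA is ribosome-bound RNA of D2 cells. The groups were 5 cocaine IP libraries, 1 cocaine unbound library, 3 saline IP libraries (numbers 1, 2 and 4) and 1 saline input library. All mice carried the transgene and took part in short-access intravenous self-administration, of cocaine or of saline as each group's name says. The design sets cocaine against saline intake in these neurons. The input and unbound libraries show which transcripts are richer in the IP RNA than in the comparison RNA. Content of D2 cells, loading of ribosomes and RNA fraction cannot be told apart in such a ratio. The labels do not say how many mice stand behind a library or whether each was drawn from its own animals. A p-value here therefore speaks only of the spread among these libraries, which may be technical. Fewer cells of a type and less RNA per cell cannot be told apart in such bulk samples.

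Complex I takes electrons from NADH, passes them through a flavin and a chain of iron-sulfur clusters to ubiquinone, and pumps protons across the inner mitochondrial membrane. Its matrix arm carries the electron path, its membrane arm pumps, and both are built around core subunits conserved from bacteria, which in mammals are wrapped in accessory subunits. Assembly factors help to build the modules and are absent from the finished enzyme. In the brain this enzyme supplies much of the proton gradient for ATP synthesis, on which neurons depend to keep up their ion gradients.

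The labelled cell type was checked first. In the saline IP libraries all 6 indirect-pathway neuron markers were at least 2-fold higher than in the input in every library (median log2 ratio 2.59), and 6 of 6 measured direct-pathway (median -3.03), astrocyte (-3.82) and oligodendrocyte markers (-3.63) were lower by the same rule. In the cocaine IP libraries against unbound RNA the same lists gave 6 of 6 higher (2.82) and 5 of 6, 6 of 6 and 6 of 6 lower (-2.68, -3.27 and -3.39). Of 4 cholinergic interneuron markers 0 were higher and 0 lower in either comparison, with medians of -0.93 over input and -0.40 over unbound RNA. Of 5 markers shared by both pathways' projection neurons 2 were higher and 0 lower in each comparison. Reads counted to genes came to between 22975667 and 31631137 in the IP libraries, 20882691 in the unbound and 18408782 in the input library. Input and unbound RNA were sequenced in lane 1 and all IP libraries in other lanes, so lane and RNA fraction cannot be told apart. Among the IP libraries, lane 4 held only cocaine IP 3, 4 and 5, and lane 7 only saline IP 1 and 2. Only lane 6 held both treatments, so outside it lane and treatment cannot be told apart. Cocaine IP 5 stood apart in its ribosomal RNA, with 1.5% of gene reads on Rn45s, against 4.67% to 7.30% in the other IP libraries. Reads outside annotated features, set against these plus gene and ambiguous reads, made up 12.9% to 14.4% in the IP libraries, 27.4% in unbound RNA and 25.5% in the input, and the part of this difference in the IP ratios was not tested.

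Of the 45 members, 39 had a promoter window in the RefSeq table for GRCm38.p6, from 250 bases before to 50 after a start. Short words known from promoters of mitochondrial and housekeeping genes were searched on both strands, and none of them holds another. The word AAGATGGC, the core of a YY1 site, was present in 7 of the 39 members (17.9%), all of them subunits, against 3.62% of the 17066 genes of the files that have a window. In all 7 it lay on the gene's own strand, with its middle 26 to 42 bases after the start, and its ATG was the annotated start codon, so that the word spans the end of the 5′ UTR and the beginning of the coding sequence. Neither share was limited to genes whose start codon lies inside the window, and the part of this in the difference was not tested. The windows are shown because the word sits on the start codon in all 7, with the word in capitals, 5′ to 3′ on the gene's strand.
Ndufs4 (chr13:114388045-114388074, minus strand): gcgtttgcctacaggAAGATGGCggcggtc
Ndufs6 (chr13:73328433-73328462, minus strand): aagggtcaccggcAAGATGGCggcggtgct
Ndufs7 (chr10:80249462-80249491, plus strand): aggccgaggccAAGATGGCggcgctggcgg
Ndufa3 (chr7:3617384-3617413, plus strand): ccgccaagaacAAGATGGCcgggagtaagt
Ndufa9 (chr6:126849097-126849126, minus strand): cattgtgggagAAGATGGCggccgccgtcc
Ndufb8 (chr19:44555393-44555422, minus strand): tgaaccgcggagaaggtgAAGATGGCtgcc
Ndufc1 (chr3:51408915-51408944, minus strand): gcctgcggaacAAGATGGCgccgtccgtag

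The full site of NRF1, a regulator of nuclear genes for respiratory subunits, was searched as GCGCA joined to its reverse complement TGCGC. It was present in 3 of the 39 members (7.69%), against 1.48% of all genes, and the members were the subunit Ndufa11 and the assembly factors Ndufaf4 and Ndufaf5. Their windows are shown with the site in capitals, which lies before the start in Ndufa11 and Ndufaf4 and just after it in Ndufaf5.
Ndufa11 (chr17:56717692-56717721, plus strand): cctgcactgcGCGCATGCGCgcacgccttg
Ndufaf4 (chr4:24897960-24897989, plus strand): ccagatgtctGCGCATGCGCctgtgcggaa
Ndufaf5 (chr2:140170652-140170681, plus strand): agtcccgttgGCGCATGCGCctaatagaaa
The word TGCGCA was in 28.2% of members and 11.1% of all genes. The ETS word CCGGAAG was in 12.8% of members and 12.8% of all genes, CCAAT in 33.3% and 41.9%, the SP1 word GGGCGG in 51.3% and 49.8%, and the ERR word TCAAGGTCA in 0% and 0.363%. A match describes these letters only. The 7 subunits with AAGATGGC had mean log2 IP ratios, defined in the next paragraph, of 0.96 (Ndufc1) to 1.71 (Ndufs6) over unbound RNA and of 0.88 (Ndufa9) to 1.68 (Ndufs4) over input.

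Complex I subunits were richer in the IP than in the comparison RNA in both treatments, and the assembly factors less so. Levels are CPM, read counts scaled to the gene reads of the library, with TMM scaling done for each comparison on its own libraries, and an IP ratio is log2 of (CPM + 1) in an IP library over (CPM + 1) in the unbound or input library. On this scale the 37 subunits measured had a median of 1.45 ± 0.11 over unbound RNA (SD of library medians, n = 5) and 1.08 ± 0.29 over input (n = 3). The 7 Ndufaf members had 0.86 ± 0.11 (n = 5) and 0.44 ± 0.11 (n = 3), and the median of all genes was 0.17 and 0.13. All 44 members measured were above 0 in every IP library of both comparisons, except that with library size alone as the scale the mean of Ndufaf6 over input was -0.06. With a single unbound and a single input library these ratios carry no test. The SD given with them is the spread between IP libraries. All ratios of a comparison share its single unbound or input library, whose own error is in none of these SDs.

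**Figure D1:**
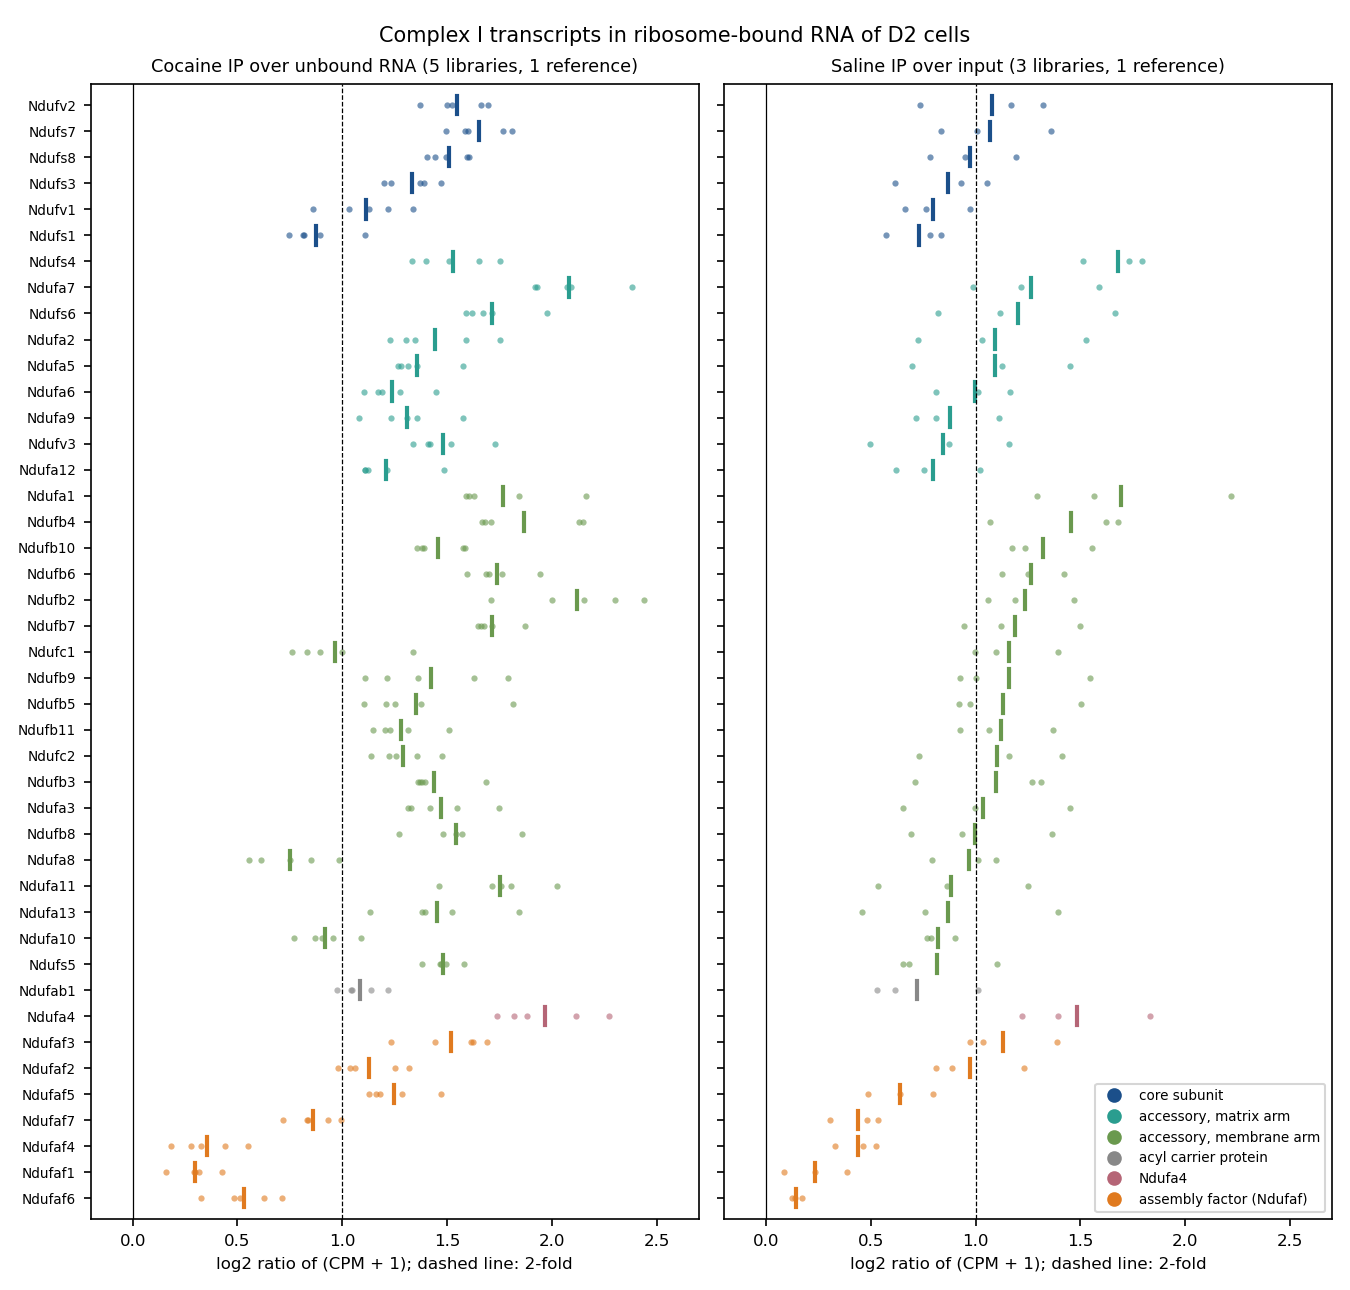
Log2 ratio of (CPM + 1) of complex I members, with cocaine IP over unbound RNA on the left and saline IP over input on the right. Dots are IP libraries, short bars their mean, colours the role, the solid line no difference and the dashed line 2-fold; subunits gather around medians of 1.45 and 1.08, and Ndufaf1, Ndufaf4, Ndufaf6 and Ndufaf7 lie to the left of most of them.

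A member was counted as higher when every IP library was at least 2-fold above the single unbound or input library. Against unbound RNA 32 of the 44 members were higher and 0 lower, where 3.78% of all 12643 genes were higher and 9.74% lower. Against input 7 of 44 were higher and 0 lower, where 1.64% of all 12902 genes were higher and 11.6% lower. The 7 were Ndufa1, Ndufs4, Ndufa4, Ndufb4, Ndufb10, Ndufb6 and Ndufb2, and each of them was also higher against unbound RNA. A further 25 were higher against unbound RNA only and 12 in neither comparison. The count against input rested on saline IP 1, whose subunit ratios were the lowest (median 0.79, against 1.37 in saline IP 2 and 1.01 in saline IP 4). Without that library 20 members were higher, and 11 without saline IP 2, while the count over all genes was 211 with 3 libraries and 377 and 344 without these libraries. Scaled by library size alone, 3 members were higher against input, and 70 of all genes. For 40 of the 44 members the mean ratio was larger against unbound RNA than against input. The sets differ at once in treatment and in the kind of comparison RNA, which cannot be told apart, and the difference was not tested.

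The core subunits of the matrix arm came to 7 genes, and 4 of them were higher against unbound RNA and 0 against input. Ndufs7, which holds the last iron-sulfur cluster before ubiquinone, had 118, 148, 126, 127 and 143 CPM in cocaine IP 1 to 5, against 41.3 CPM in unbound RNA. It had 120, 174 and 136 CPM in saline IP 1, 2 and 4, against 67.1 CPM in the input. Every IP library lay above its comparison library, with mean log2 ratios of 1.65 ± 0.13 (SD, n = 5) and 1.07 ± 0.27 (SD, n = 3). Ndufs1, the largest subunit and a carrier of several iron-sulfur clusters, had 108, 97.6, 102, 126 and 102 CPM in the cocaine IP libraries, against 57.8 CPM in unbound RNA. It had 96.7, 112 and 116 CPM in the saline IP libraries, against 64.6 CPM in the input. Its mean ratios of 0.88 ± 0.14 and 0.73 ± 0.14 were the lowest of the core subunits named here in both comparisons.

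Other core subunits lay between these over unbound RNA. Ndufv2, a flavoprotein subunit of the NADH-binding module, had mean log2 ratios of 1.55 over unbound RNA and 1.08 over input. Ndufs8, an iron-sulfur subunit, had 1.51 and 0.98, and Ndufs3, a subunit of the ubiquinone-binding module without a cluster, had 1.33 and 0.87. These 3 were higher against unbound RNA in all 5 libraries. Ndufv1, which binds the flavin and NADH, had 1.11 and 0.80 and did not pass 2-fold in every library. Ndufs1 shares 498 exon bases with genes on the other strand (Ino80dos and Eef1b2), and reads of such pairs cannot be told apart without strand.

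All 9 accessory subunits of the matrix arm were higher against unbound RNA, and 1, Ndufs4, was higher against input. Ndufs4, a small subunit of the NADH-binding end whose loss in mice causes an encephalopathy like Leigh syndrome, had 312, 291, 244, 233 and 263 CPM in cocaine IP 1 to 5, against 92.0 CPM in unbound RNA. It had 309.5, 296 and 254 CPM in saline IP 1, 2 and 4, against 88.5 CPM in the input. Its mean ratios were 1.53 ± 0.17 and 1.68 ± 0.15, and it was 1 of only 4 members with the larger mean ratio against input, beside Ndufa8, Ndufc1 and Ndufaf4. The gene lies at chr13:114287795-114388258 on the minus strand. Its exons overlap no exon of another annotated gene, where small RNA genes and unconfirmed gene models were not searched.

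Ndufa7, an accessory subunit of the matrix arm, had the second highest ratio over unbound RNA. It had 128, 156, 113, 126 and 114 CPM in the cocaine IP libraries, against 29.2 CPM in unbound RNA, a mean log2 ratio of 2.08 ± 0.19 (SD, n = 5). In the saline IP libraries it had 114, 173 and 134 CPM, against 56.9 CPM in the input, with a mean of 1.27 ± 0.30 (SD, n = 3). Saline IP 1 fell just short of 2-fold at 0.99. The mean ratios of the 9 ran from 1.21 (Ndufa12) to 2.08 over unbound RNA and from 0.80 (Ndufa12) to 1.68 over input.

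The membrane arm had 19 accessory subunits, 16 of them higher against unbound RNA and 5 against input. Ndufa1, a small single-span subunit, had the highest ratio over input of all members. It had 211, 310.3, 214, 208 and 249 CPM in cocaine IP 1 to 5, against 68.6 CPM in unbound RNA, and 187, 357 and 227 CPM in saline IP 1, 2 and 4, against 75.8 CPM in the input. The mean log2 ratios were 1.77 ± 0.24 and 1.69 ± 0.48, and saline IP 2 stood well above the other saline libraries. Ndufb4, of the far end of the membrane arm, had means of 1.87 ± 0.25 and 1.46 ± 0.34, and Ndufb10, which faces the intermembrane space, had 1.46 ± 0.11 and 1.32 ± 0.20. Ndufb6, another small membrane subunit, had 1.74 ± 0.13 and 1.27 ± 0.15.

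Ndufb2, a small subunit of the far membrane arm, had the highest ratio over unbound RNA of all members. It had 175, 192, 142, 158 and 116 CPM in cocaine IP 1 to 5, against 34.7 CPM in unbound RNA, and 152, 203 and 167 CPM in saline IP 1, 2 and 4, against 72.6 CPM in the input. The mean ratios were 2.12 ± 0.28 and 1.24 ± 0.21, with cocaine IP 5 the lowest of the cocaine libraries. Its exons share 145 bases with Gm42420 on the same strand and 302 with Gm16272 and Braf on the other, which makes its counts uncertain. The 3 membrane subunits that did not pass 2-fold against unbound RNA in every library were Ndufa10 (0.92 ± 0.12), Ndufc1 (0.96 ± 0.22) and Ndufa8 (0.75 ± 0.17). Ndufa8, held by disulfide bonds on the intermembrane side, had 121, 110.2, 103, 89.5 and 93.3 CPM in the cocaine IP libraries, against 60.7 CPM in unbound RNA. It was the lowest subunit in that comparison, yet its mean over input, 0.97 ± 0.16, lay inside the range of the other subunits. The means of the 19 ran from 0.75 (Ndufa8) to 2.12 (Ndufb2) over unbound RNA and from 0.81 (Ndufs5) to 1.69 (Ndufa1) over input. Those higher against unbound RNA but not against input included Ndufa11 and Ndufa13, of the part of the membrane arm next to the matrix arm, with 1.75 ± 0.20 and 1.45 ± 0.26 over unbound RNA and 0.88 ± 0.36 and 0.87 ± 0.48 over input.

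Ndufab1, the mitochondrial acyl carrier protein found in both arms, had mean ratios of 1.08 ± 0.09 over unbound RNA and 0.72 ± 0.26 over input and was higher in neither comparison. It has 3 near copies among GENCODE genes (at least 95% identity over 100 or more coding bases), so its counts are uncertain. Ndufa4 was named as a complex I subunit and is now placed with complex IV. It had 622, 765, 649, 588 and 852 CPM in cocaine IP 1 to 5, against 176 CPM in unbound RNA, and 574, 877 and 646 CPM in saline IP 1, 2 and 4, against 245 CPM in the input. Its mean ratios of 1.97 ± 0.22 and 1.48 ± 0.32 were the third highest of all members in both comparisons. Its paralogue Ndufa4l2, known to be induced by low oxygen, had at most 7 reads in any library. It had 2, 1, 2, 0 and 1 reads in cocaine IP 1 to 5, against 7 in unbound RNA, and 4, 0 and 1 in saline IP 1, 2 and 4, against 4 in the input. It was the member below the filters on low values, and no fold is given for it.

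The assembly factors divided. Ndufaf3 and Ndufaf5 were higher against unbound RNA, and 0 of the 7 were higher against input. Ndufaf1, Ndufaf4, Ndufaf6 and Ndufaf7 were among the 5 lowest members in both comparisons. Ndufaf1, which joins Ecsit and Acad9 in the complex that builds the membrane arm, had 22.7, 20.3, 24.6, 22.4 and 22.4 CPM in cocaine IP 1 to 5, against 18.04 CPM in unbound RNA. It had 17.8, 22.1 and 19.8 CPM in saline IP 1, 2 and 4, against 16.7 CPM in the input. The mean log2 ratios were 0.30 ± 0.09 and 0.24 ± 0.15, and the lowest saline library, saline IP 1, lay inside the counting interval of the input (14.99 to 18.6 CPM, exact Poisson, 95%).

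Ndufaf6, a protein of the phytoene synthase family, had 8.10, 9.05, 8.28, 7.17 and 9.68 CPM in the cocaine IP libraries, against 5.52 CPM in unbound RNA. It had 7.69, 7.98 and 7.78 CPM in the saline IP libraries, against 6.98 CPM in the input, and all 3 lay inside the input's interval of 5.89 to 8.21 CPM. A difference from the input was therefore not detectable at this depth, which was 145 reads in the input. Ndufaf4, which works with Ndufaf3 on the ubiquinone-binding module, had 175, 204, 169, 158 and 189 CPM in the cocaine IP libraries, against 139 CPM in unbound RNA, and 148, 163 and 170.3 CPM in the saline IP libraries, against 118 CPM in the input. Its means were 0.36 ± 0.14 and 0.44 ± 0.10, small but above 0 in every library.

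Ndufaf3, its partner, had 62.4, 65.9, 55.2, 62.8 and 47.7 CPM in the cocaine IP libraries, against 19.7 CPM in unbound RNA, and 58.1, 78.0 and 60.7 CPM in the saline IP libraries, against 29.1 CPM in the input. Its means of 1.52 ± 0.18 and 1.13 ± 0.23 were the highest of the assembly factors and lay near the medians of the subunits. Ndufaf5, which in human cells modifies Ndufs7 during assembly, had 1.25 ± 0.14 and 0.64 ± 0.15, and Ndufaf2, a paralogue of Ndufa12 that acts late in assembly, had 1.13 ± 0.15 and 0.98 ± 0.22. Ndufaf7, a protein methyltransferase, had 0.86 ± 0.11 and 0.44 ± 0.12. Ndufaf2 shares 1955 exon bases with B230220B15Rik on the other strand, so its counts are uncertain. Within each library the subunit median exceeded the Ndufaf median by 0.64, 0.61, 0.43, 0.54 and 0.64 in cocaine IP 1 to 5 and by 0.46, 0.84 and 0.52 in saline IP 1, 2 and 4. With 7 Ndufaf genes of quite different ratios, this describes the libraries and carries no test.

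Transcript length moved with the IP ratio, among all genes and among the members. Genes whose principal transcript was at most 1000 bases long had a median ratio of 0.82 over unbound RNA and 0.55 over input, and those over 4000 bases had -0.02 and -0.03. Members ran from 419 bases (Ndufa1) to 4371 bases (Ndufb2), with a median of 875 for the 37 subunits and 1451 for the 7 Ndufaf members. Across the 44 members the ratio and log2 length had Pearson's r of -0.42 and Spearman's rho of -0.48 over unbound RNA, and -0.41 and -0.48 over input. This is a description across genes of the same libraries, which are not independent replicates. Of members up to 1000 bases, 21 of 23 were higher against unbound RNA, where 28% of all genes in that class were, and 5 of 23 against input, where 5.78% were. Of members of 1000 to 2000 bases the counts were 10 of 16, against 7.35% of all genes, and 1 of 16, against 3.09%. Of members of 2000 to 4000 bases 0 of 4 were higher in either comparison, against 2% and 1.41% of all genes. Ndufb2, the 1 member over 4000 bases, was higher in both, against 0.985% and 0.698%. Its principal transcript has 315 coding bases, and whether this long form is the one expressed here was not tested.

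**Figure D2:**
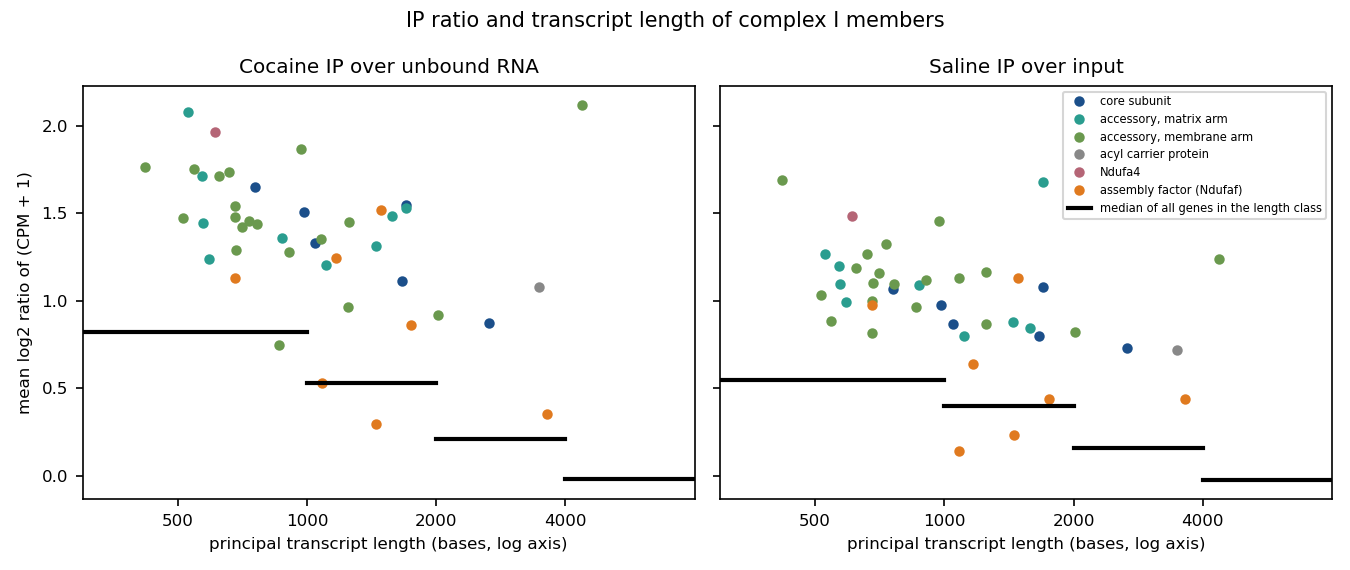
Mean log2 IP ratio of complex I members against the length of the principal transcript in bases (log axis), with cocaine IP over unbound RNA on the left and saline IP over input on the right. Points are members coloured by role and black lines the median of all genes in a length class. Most subunits lie above the line of their class, while Ndufaf1 lies below it in both panels. Ndufaf6 lies on the line over unbound RNA and below it over input.

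Within the class of 1000 to 2000 bases the 11 subunits had median ratios of 1.33 over unbound RNA and 0.87 over input, and the 5 Ndufaf members 0.86 and 0.44, with single Ndufaf members from 0.30 to 1.52 over unbound RNA. Up to 1000 bases the 22 subunits had medians of 1.49 and 1.10, and the 1 Ndufaf member 1.13 and 0.98. The part of length in the IP ratios of the members, or in the gap between the subgroups, was not tested. Of the genes in these comparisons 89.6% and 89.2% had a principal transcript in GENCODE.

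The other genes of the pathway gave like values. Among 12 measured assembly factors without an Nduf symbol, 3 were higher against unbound RNA and 1 against input, with medians of 0.86 and 0.73. Ecsit and Tmem261, in human cells an assembly factor of the membrane arm, had 1.20 and 1.38 over unbound RNA and 1.12 and 1.11 over input. Acad9, a flavoprotein of the same assembly complex as Ecsit, had 0.02 ± 0.19 and -0.14 ± 0.08. Among 37 measured nuclear subunits of complexes II to V, 23 and 7 were higher, with medians of 1.41 and 1.01. They ran over unbound RNA from 0.30 (Atp5g2, a ring subunit of ATP synthase) to 2.07 (Uqcr11, a small subunit of complex III). The mt-Nd symbols of the mitochondrially encoded complex I subunits and the symbol Ndufb1 are absent from the counts under these names.

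Levels between genes were compared per kilobase of principal transcript. IP values here were TMM-scaled over the 8 IP libraries, and unbound and input values within their own comparison. IP values are thus not on the same scale as the unbound and input values beside them. Ndufa4 was the highest member, with 1117 ± 175 CPM per kb in cocaine IP (SD, n = 5) and 1096 ± 247 in saline IP (SD, n = 3), against 288 in unbound RNA and 402 in the input. Ndufa1 (557 ± 96.8 and 586 ± 202) and Ndufb9 (518 ± 103 and 537 ± 132), both of the membrane arm, followed and did not differ from each other by more than their spread. The core subunits were lower, between 39.5 ± 4.0 and 38.9 ± 3.5 for Ndufs1 and 171 ± 14.7 and 181 ± 34.6 for Ndufs7 in cocaine IP and saline IP. The Ndufaf members ran from 7.66 ± 0.87 and 6.91 ± 0.12 (Ndufaf6) to 100.3 ± 9.8 and 99.9 ± 16.2 (Ndufaf2). The lowest measured member was Ndufab1, at 5.12 ± 0.39 and 5.25 ± 1.02, whose principal transcript is 3479 bases long with 468 coding bases, and Ndufa4l2 was at 0.04 ± 0.03 and 0.06 ± 0.07.

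No complex I member passed the test for a difference between cocaine and saline. In edgeR's quasi-likelihood test on the 5 cocaine IP and 3 saline IP libraries 0 of the 44 members tested passed an adjusted p of 0.05, and 0 had an unadjusted p under 0.05. Over all 13800 genes 0 passed (0%), with 295 (2.14%) at an unadjusted p under 0.05, and DESeq2 and limma-voom also called 0, with 363 and 320 at an unadjusted p under 0.05. The groups overlapped in all 44 members, where 2.34% of all genes had groups that did not overlap. The median log2 fold change, cocaine over saline, was -0.04 over the 37 subunits, 0.15 over the 7 Ndufaf members and 0.01 over all genes.

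**Figure D3:**
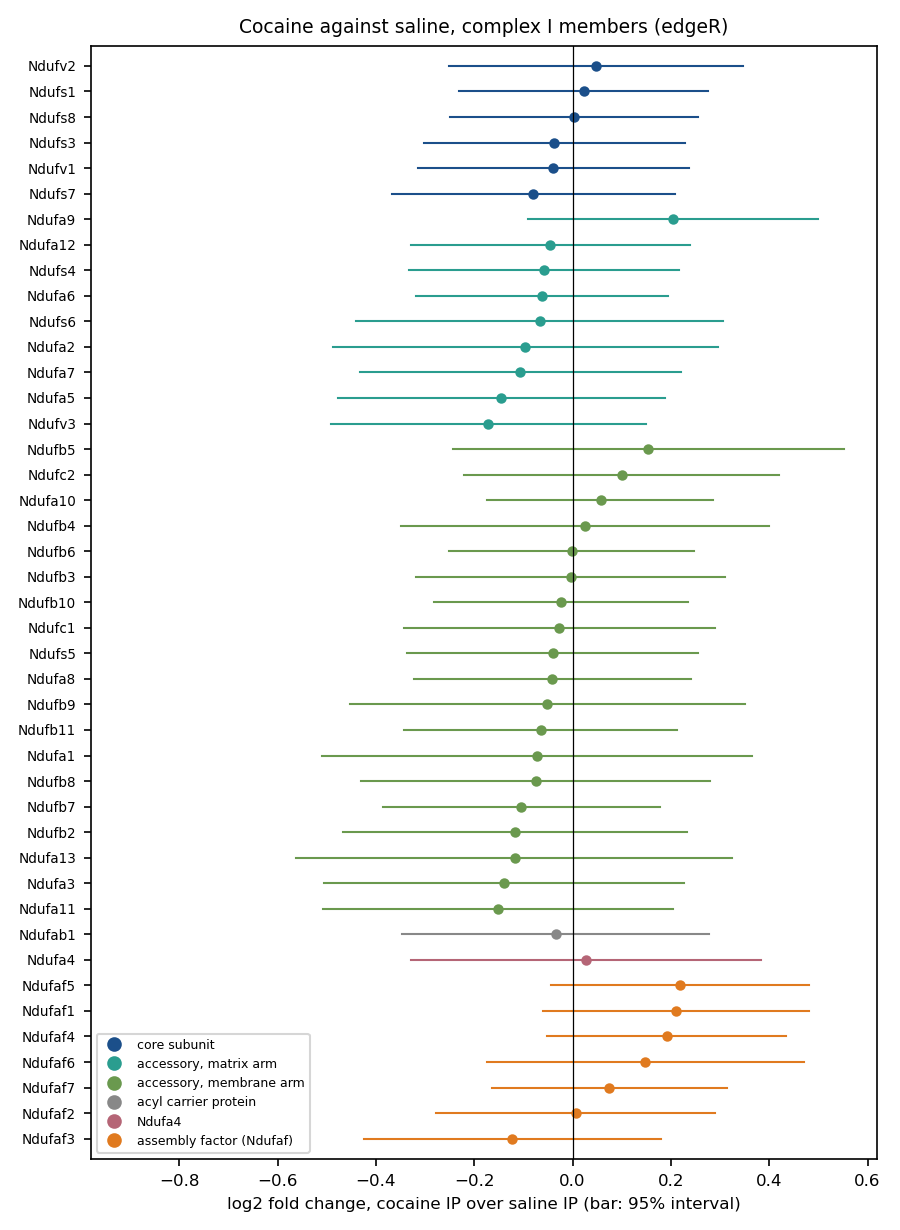
Log2 fold change of complex I members, cocaine IP over saline IP, with its 95% interval from edgeR, coloured by role and sorted within role. All intervals drawn include 0, and 6 of the 7 Ndufaf members have a positive estimate.

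The test bounds these differences. In 39 of the 44 members the 95% interval lay within 0.5 of 0 on the log2 scale, the widest bound reached 0.56 in size (Ndufa13), and the median standard error was 0.14. Differences inside these intervals cannot be seen or dismissed with these libraries. The intervals come from the fit that takes no account of the library numbers shared by both treatments. Among subunits 10 estimates were positive and 27 negative, and among Ndufaf members 6 positive and 1 negative.

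The 6 members with the smallest p included 3 assembly factors. Ndufaf5 had 87.8, 93.3, 89.0, 83.9 and 108 CPM in cocaine IP 1 to 5, against 79.1, 88.2 and 70.8 CPM in saline IP 1, 2 and 4, scaled over the 8 IP libraries. The highest saline library lay above 2 of the 5 cocaine libraries, and the log2 fold change was 0.22 (SE 0.12, edgeR adjusted p = 0.9998). Ndufaf4 had 173, 197, 168, 154 and 186 CPM in the cocaine libraries, against 142, 156 and 162 CPM in the saline libraries. Only cocaine IP 4 fell within the saline range, and the log2 fold change was 0.19 (SE 0.11, adjusted p = 0.9998). Ndufaf1 had 22.5, 19.6, 24.4, 21.7 and 22.0 CPM in the cocaine libraries, against 17.1, 21.2 and 18.9 CPM in the saline libraries, with 0.21 (SE 0.12, adjusted p = 0.9998).

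**Figure D4:**
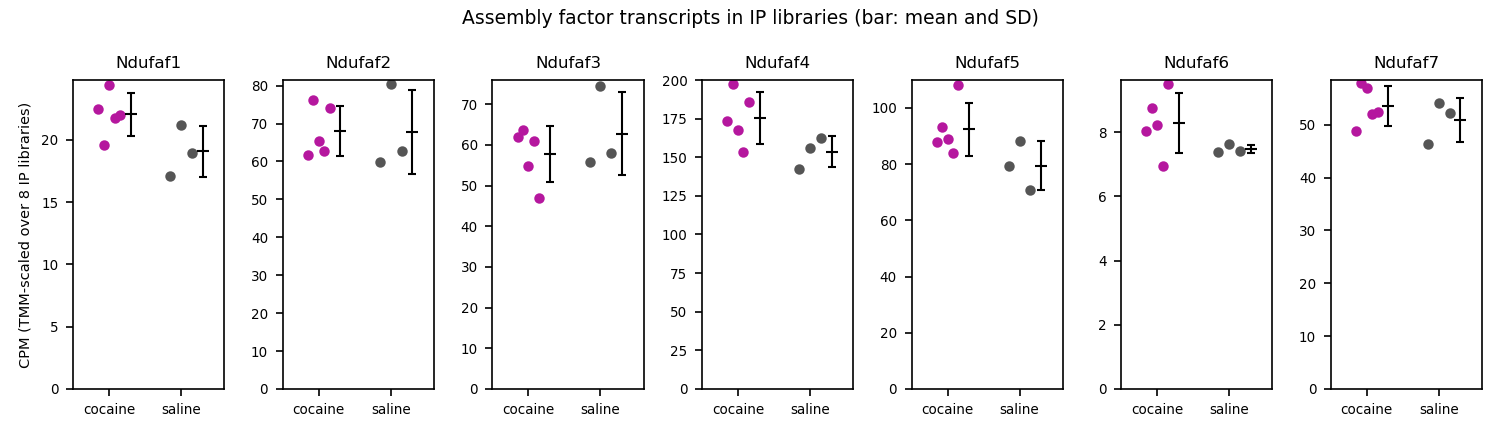
CPM of the 7 assembly factors in the IP libraries, each panel with its own axis from 0, cocaine on the left and saline on the right. Dots are libraries and the bar is the mean and SD (n = 5 cocaine, n = 3 saline); the groups overlap in every panel, and Ndufaf3 is the one whose cocaine mean lies below its saline mean.

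Subunits were also among them. Ndufa9, at the joint of the arms, had 175, 190.1, 206, 208 and 246 CPM in the cocaine libraries, against 158, 207 and 168 CPM in the saline libraries, a log2 fold change of 0.20 (SE 0.14). The groups overlapped, and cocaine IP 5 was the highest library. Ndufv3, a small subunit of the NADH-binding module, had 138, 155, 121, 126 and 126 CPM in the cocaine libraries, against 116, 183 and 150.3 CPM in the saline libraries, with -0.17 (SE 0.15). Its negative estimate rested on saline IP 2, without which it was 0.00. Both had an edgeR adjusted p of 0.9998.

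The remaining core and assembly genes were closer to 0. Ndufv2 had a log2 fold change of 0.05 (SE 0.14), Ndufs1 0.02 (SE 0.12), Ndufs8 0.00 (SE 0.12), Ndufs3 -0.04 (SE 0.12), Ndufv1 -0.04 (SE 0.13) and Ndufs7 -0.08 (SE 0.13). Among the assembly factors Ndufaf6 had 0.15 (SE 0.15), Ndufaf7 0.08 (SE 0.11), Ndufaf2 0.01 (SE 0.13) and Ndufaf3 -0.12 (SE 0.14). Ndufa4, the member at the highest level, had 0.03 (SE 0.16). Among the 38 nuclear subunits of complexes II to V and the 12 other assembly factors 0 passed the threshold, and the smallest p was that of Atp5b, the catalytic beta subunit of ATP synthase, at 0.23 (SE 0.10, edgeR adjusted p = 0.9998).

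Subunit medians differed more between single libraries than between treatments. The deviation of the subunits from their mean over the 8 IP libraries, on the log2 (CPM + 1) scale, had medians of -0.09, 0.15, -0.06, -0.10 and 0.01 in cocaine IP 1 to 5 and of -0.19, 0.27 and -0.03 in saline IP 1, 2 and 4. In saline IP 2, 36 of 37 subunits lay above their mean and in cocaine IP 2, 33 of 37, while in saline IP 1 only 3 of 37 did. The Ndufaf members varied less, with medians of 0.01, 0.12, 0.03, -0.05 and 0.13 in cocaine IP 1 to 5 and of -0.17, 0.02 and -0.09 in saline IP 1, 2 and 4. In both treatments the library numbered 2 was the highest for the subunits. Over all genes the deviations of same-numbered libraries correlated as well, and so did those of some libraries with different numbers.

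**Figure D5:**
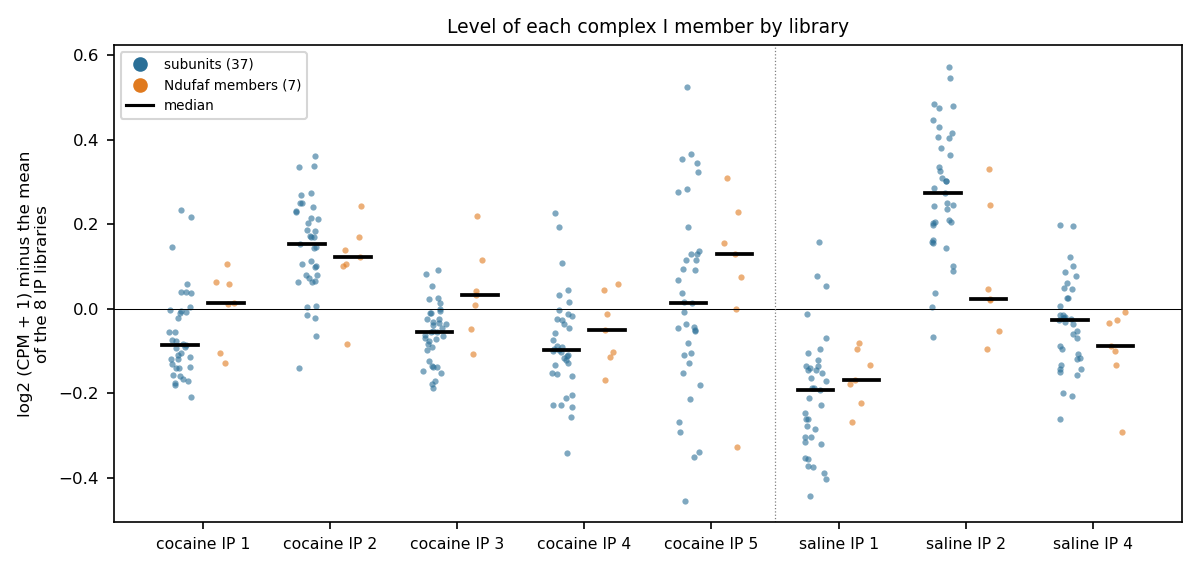
Level of each complex I member in each IP library as log2 (CPM + 1) minus its mean over the 8 libraries, cocaine libraries on the left of the dotted line and saline libraries on the right. Dots are genes and black bars medians; the subunits of saline IP 2 have a median of 0.27 and those of saline IP 1 of -0.19.

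The sign of the subunit median between treatments depended on these libraries. It was 0.10 without saline IP 2 and -0.15 without saline IP 1, and 0.08 in lane 6 alone, which holds cocaine IP 1 and 2 and saline IP 4. With the number as a block (libraries 1, 2 and 4 of both treatments) it was -0.01, and the median of the Ndufaf members was 0.07, with 0 members past the threshold and 903 genes at an unadjusted p under 0.05, against 141 in the same 6 libraries without the block. The Ndufaf median stayed positive in each of these fits, at 0.16, 0.12 and 0.15 without saline IP 2, without saline IP 1 and in lane 6. The summed level of the 6 astrocyte markers was 113, 81.1, 105, 126 and 144 CPM in cocaine IP 1 to 5 and 140, 44.6 and 131 CPM in saline IP 1, 2 and 4, and that of the 6 oligodendrocyte markers 408, 204, 248, 268 and 274 CPM and 434, 198 and 321 CPM. The library numbered 2 was thus the lowest of its treatment for both lists and the highest for the subunits, and the part of these cells' RNA in the subunit levels was not tested.

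Shared sequence limits some members. In GENCODE 16 of the 45 members overlap an exon on the other strand and 3 an exon on the same strand. Small RNA genes and unconfirmed gene models were left out of this search, and near copies were sought among GENCODE transcripts only. A near copy of the coding sequence exists for 8 members. The longest near copy reached 387 of 387 coding bases in Ndufb4, 789 of 789 in Ndufs3 and 347 of 348 in Ndufs6. Ndufa12, Ndufb3 and Ndufb11 also have near copies, and the counts of all such members are uncertain. The longest overlap of a subunit was that of Ndufb5 with Mrpl47, 616 bases on the other strand. Ndufs5, of the intermembrane side of the membrane arm, has a near copy over its 318 coding bases in BC002163, which was counted apart. Ndufs5 had 18.1 to 20.6 CPM in the cocaine IP libraries and 17.7 to 24.3 CPM in the saline IP libraries, and BC002163 had 13.9 to 17.7 CPM and 10.2 to 17.1 CPM, so reads of this pair may be split between them and their separate values are uncertain.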

How the data were processed

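The deposited files hold raw read counts per gene symbol, 1 file a library, made by the authors with STAR 2.0.0e and HTSeq on mm10, per the submitters' processing notes. Gene annotation and strand setting, both not given in the sources used here, bear on members that overlap other genes. Groups come from the titles and lanes from the descriptions. Each file's special HTSeq counters name no gene and were left out of library sizes and tests. Of gene, no-feature and ambiguous reads, 3.42% to 3.95% were ambiguous in the IP libraries, 7.34% in the unbound and 7.33% in the input library. Reads placed at several sites made up 33.3% to 47.1%, 25.9% and 31.1% of all reads in the files.

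Cocaine IP was tested against saline IP with edgeR 4.0.16 in R 4.3.3 (quasi-likelihood test, two-sided, TMM, filterByExpr, Benjamini-Hochberg over all genes kept). The common biological coefficient of variation was 0.199. IP libraries were set against the single unbound or input library as log2 ratios of CPM plus 1, keeping genes whose mean reached 1 CPM. A depth of 3 reads equals 0.0948 to 0.131 CPM in IP libraries, 0.144 in the unbound and 0.163 in the input. Intervals and floors cover counting error only. Every pair of libraries in a group differed by more than sampling noise (chi-square over its degrees of freedom at least 21.5).

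Cocaine and saline libraries share the numbers 1, 2 and 4, of which the labels give no meaning. Same-numbered deviations from the group means correlated at 0.64, 0.52 and 0.23 over the 13800 genes tested. Each was over 0.1, so the numbers were taken to pair the libraries in the fit with a block. The main test, with its p-values, standard errors and intervals, took no account of this pairing. Saline 2 and saline 4 also correlated with cocaine 3, at 0.37 and 0.12.

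Positions are from GENCODE M21 on GRCm38, the assembly of mm10. Lengths are of APPRIS principal transcripts, and near copies were found with blastn 2.17.0. Alternatives were other scalings, DESeq2 1.42.0, limma-voom (limma 3.58.1), filters, pseudocounts, a 1.5-fold limit, lanes, the block and leaving out each library. The fits were tested on simulated data. Genes named are the core subunits, the Ndufaf members, Ndufa4 and Ndufa4l2, the 5 highest and 5 lowest by IP ratio, the 6 with the smallest p for cocaine against saline, the extremes per kilobase and a few from each other list. A member counted in the totals is not reported here by name. Further members appear where a count or a doubt about reads falls on them, chosen after their values were seen. The members, lists and promoter words were chosen with earlier results of these data known.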

Additional observations from a re-analysis of the deposited data

Results flagged for a closer look

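Of 46 values examined among the cocaine IP libraries, 3 had 1 library far from the other 4. Chance alone gives about 1 in 20, so this count is near what chance gives. Ndufb3, a membrane arm subunit, had 350.5 CPM in cocaine IP 2, against 283 to 294 CPM in the other cocaine libraries, and Ndufb7, of the intermembrane side, had 152 CPM there, against 133 to 137 CPM. Ndufb5, a membrane arm subunit, had 472 CPM in cocaine IP 5, against 290.0 to 342 CPM. Cocaine IP 2 was the cocaine library in which 33 of 37 subunits lay above their mean, and cocaine IP 5 the one with the least ribosomal RNA.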

How the results depend on the processing

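For cocaine against saline, 0 genes and 0 members passed under every alternative run, and the adjusted p of the 6 members with the smallest p ranged from 0.786 to 1. The replicate block changed no member's call: subunit and Ndufaf medians were -0.01 and 0.07. Over the fits that left out 1 library the subunit median ran from -0.15 to 0.10 and the Ndufaf median from 0.08 to 0.20. With lane as a covariate, a fit in which only lane 6 sets the treatments against each other, they were 0.09 and 0.16. Without lane 4 they were 0.00 and 0.13. Ndufv3 (-0.17) turned to 0.001 without saline IP 2 and ran from -0.34 to 0.001 over these fits. The cause of these shifts was not tested.

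Against input, members higher came to 3 with library size alone, 34 at a 1.5-fold limit and 18 in the lane 6 library. They came to 9 to 20 when 1 library was left out. Fewer libraries or a lower limit make the rule easier to meet for all genes as well. Shares of all genes are not given for these counts, which therefore say nothing of the members alone. Library size alone moved the median of all genes to -0.01 over unbound RNA and -0.10 over input. The Ndufaf medians were then 0.67 and 0.21, the subunit medians 1.26 and 0.85, and members higher against unbound RNA 23. That count, too, is given without the share of all genes. Relative to all genes the subunit medians were 1.27 and 0.94 under that scale and 1.28 and 0.95 under TMM. The other results kept their direction and side of the threshold, except Ndufaf6 over input with library size alone.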
